A study of Homo sapiens with 16 samples.

Results

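Transforming growth factor β (TGF-β) ligands, their receptors and the genes that store and restrain them were followed in Ccd18-Co cells, a fibroblast line from human colon. The set held 10 genes chosen by symbol from 40663 rows of the deposited table: the ligands TGFB1, TGFB2 and TGFB3, the receptors TGFBR1, TGFBR2 and TGFBR3, the transcription factor SMAD3, the inhibitor SMAD7, the activin subunit gene INHBA and the storage protein gene LTBP1. The genes were picked by name and by no cut on a measured value, but earlier results of these data were known when they were chosen. All 10 passed the filter on low counts in every comparison.

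RNA was sequenced from 16 libraries in 4 groups of 4. Cells of 3 groups had gone through 3 pulses of a cytokine mix, each 72 h long, with IL-1B at 0.1 ng/ml and 10 ng/ml apiece of OSM, IL-17A and TNF, followed by a recovery time of 96 h. They then rested for 1 week and were kept for 5 days in DMSO (here vehicle), in belinostat at 250 nM or in GSK-J4 at 10 µM, and the remaining group received DMSO and no cytokines (here unstimulated). RNA was taken 2 weeks after the compounds had been removed. These doses are those of the sample labels. In places the paper gives a higher dose of belinostat, lower doses of GSK-J4 and IL-1B, and fewer RNA-seq replicates per group. Belinostat inhibits histone deacetylases, and GSK-J4 inhibits the demethylases that act on lysine 27 of histone H3. All 4 groups are the same line. The labels name no batch and do not say whether the libraries of a group came from separate cultures. The p-values therefore measure the spread between these libraries.

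TGF-β ligands are made as latent complexes, which LTBP1 tethers to the extracellular matrix until integrins or proteases release the ligand. The released ligand binds TGFBR2, which then activates TGFBR1, and TGFBR1 phosphorylates SMAD2 and SMAD3. TGFBR3, also called betaglycan, is a co-receptor that presents ligand to TGFBR2, and TGF-β2 depends on it most because it binds TGFBR2 weakly by itself. SMAD7 is induced by the pathway and shuts off its receptors. In gut fibroblasts the pathway is known for driving collagen synthesis and the contractile myofibroblast state.

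TGFB2 was the gene of the set that varied most between groups, and TGFB1 hardly varied. The genomic bases just before their start sites are therefore shown together, followed by those of SMAD7, whose product feeds back on the pathway. They are the 250 bases upstream of the first start that RefSeq lists (GRCh38.p14), read on the strand of the gene. Capitals mark CAGAC, the half-site that SMAD3 and SMAD4 bind, and CACGTG, an E-box. The 3 windows lie at chr1:218345086-218345335 (plus strand), chr19:41353923-41354172 (minus strand) and chr18:48950966-48951215 (minus strand).
TGFB2: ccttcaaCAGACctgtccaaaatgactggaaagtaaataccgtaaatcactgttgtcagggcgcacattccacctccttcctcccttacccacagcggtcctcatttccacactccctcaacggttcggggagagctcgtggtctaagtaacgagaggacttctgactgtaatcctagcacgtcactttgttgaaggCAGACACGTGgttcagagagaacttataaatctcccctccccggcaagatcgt
TGFB1: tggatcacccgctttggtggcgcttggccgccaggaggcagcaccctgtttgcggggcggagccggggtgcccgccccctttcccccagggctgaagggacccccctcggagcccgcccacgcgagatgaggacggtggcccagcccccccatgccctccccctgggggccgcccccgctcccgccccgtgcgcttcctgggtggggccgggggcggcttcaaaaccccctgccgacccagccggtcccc
SMAD7: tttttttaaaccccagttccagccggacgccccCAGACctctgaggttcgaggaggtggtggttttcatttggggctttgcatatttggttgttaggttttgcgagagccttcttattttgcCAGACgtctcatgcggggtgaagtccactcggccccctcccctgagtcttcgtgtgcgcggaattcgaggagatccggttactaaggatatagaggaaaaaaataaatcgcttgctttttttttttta

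In TGFB2, CAGAC began at positions -243 and -53 from the start, and the second shares its last base with an E-box at -49. In SMAD7 it began at -217 and -128, and the TGFB1 window held no motif searched. RefSeq lists 3 starts for SMAD7 and 1 each for TGFB2 and TGFB1. At another SMAD7 start, not shown, CAGAC stood on the minus strand at -193, and the window of the remaining start held no motif searched. G and C made up 50.4% of the TGFB2 window, 76.8% of the TGFB1 window and 48% of the SMAD7 window. On either strand, CAGAC stood in 45.3% and CACGTG in 7.26% of 35116 promoter windows of 300 bases, so a CAGAC is common. The search also covered TGACGTCA, the cyclic AMP response element (1.85% of windows), TGAGTCA, an AP-1 site (4.95%), and GTCTAGAC, a palindromic SMAD element (0.202%), and found none of them in the windows shown. The symbols of all 10 genes matched the table of promoters. These matches describe the letters in a window and say nothing of binding.

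Libraries held 14.42 to 19.48 M estimated counts, and values below are normalized counts, that is estimated counts divided by a size factor per library. Belinostat library 17 was the least like its own group, with a mean Pearson's r of 0.9871 across genes against 0.9913 to 0.9963 for the other 15 libraries. Results with belinostat are therefore also given without it where it matters. All 9 fibroblast markers were expressed, summing to 431600 to 574800 normalized counts, while the 4 epithelial markers summed to at most 17.65 with KRT20 at 0, and CD3E, MS4A1 and SOX10 were at 0 throughout. Of 5 immune and 3 endothelial markers, only CD68 and VWF averaged 10 counts or more. In bulk RNA, fewer cells that express a gene and less RNA per cell cannot be told apart.

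Compared per length of the canonical transcript in vehicle cells, TGFBR2 was the most abundant gene of the set at 2230 normalized counts per kb and TGFB3 the least at 8.16. TGFB1 (689 per kb) and SMAD3 (661) followed TGFBR2, and their libraries overlapped. LTBP1 (350) and TGFBR1 (349) overlapped, and INHBA (124) and TGFBR3 (112) did too, with SMAD7 (220) between the pairs. TGFB2 stood at 36.7 per kb in vehicle and 14.7 in unstimulated cells, where it overlapped TGFB3 at 12.1. Per length, TGFB1 was the most abundant of the 4 ligand genes in every group. These levels assume that each gene is read from its canonical transcript.

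**Figure D1:**
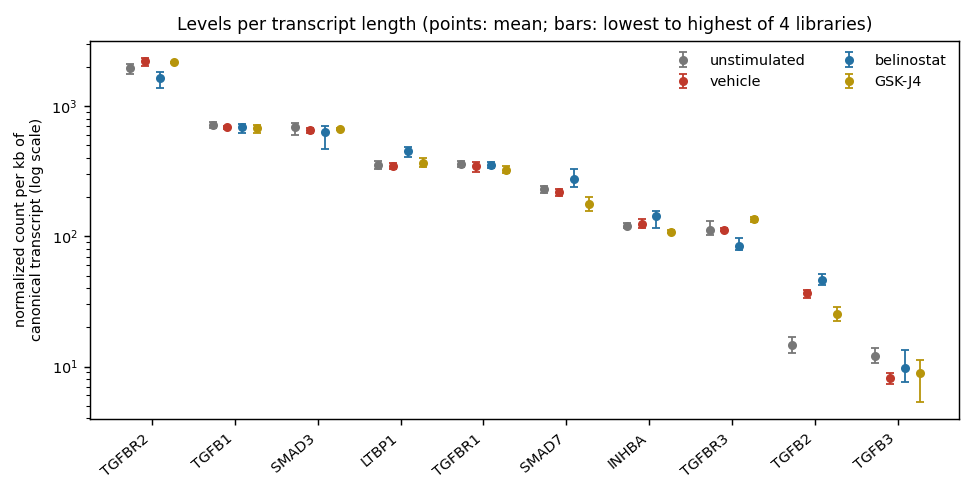
Normalized counts per kb of canonical transcript (log axis) for the 10 genes, ordered by their level in vehicle, with the mean as a point and a bar from the lowest to the highest of 4 libraries in each group. TGFBR2 is the highest at 1654 to 2230 per kb by group, TGFB2 ranges from 14.7 in unstimulated cells to 46.4 under belinostat, and TGFB1 stays at 682 to 720.

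Cytokine pulses left a higher level of 1 gene of the set, TGFB2, which stood 2.49-fold above unstimulated cells weeks after the last pulse. The other 9 genes did not pass the test in this comparison, which asked what the pulses had left behind. Here called means a DESeq2 adjusted p under 0.05, corrected over all genes tested. Each comparison was repeated in 13 alternative fits, 5 with another test, scaling, filter or set of groups and 8 with 1 library left out. TGFB2 (ENSG00000092969.12, chr1:218345336-218444619, plus strand, 7 exons in its canonical transcript) encodes TGF-β2. Its normalized counts were 74.3, 87.1, 85.2 and 98.6 in unstimulated libraries 1 to 4. They were 198.9, 229, 213.3 and 219.5 in vehicle libraries 13 to 16. Every vehicle library lay above every unstimulated library. The log2 fold change was 1.32 (SE 0.13, 95% interval 1.07 to 1.57, DESeq2 adjusted p = 3.32e-22), and the call held in 13 of 13 alternative fits. Thus 1 of 10 genes was called, while 1.74% of all 16240 genes tested were called. Set against TGFB1 within the same library, TGFB2 gave 3.94 to 4.84 counts per 100 TGFB1 counts in unstimulated cells and 10.5 to 11.7 in vehicle, which removes the library scaling from the ratio.

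Both compounds left TGFB2 above its unstimulated level. Against vehicle it was 0.694-fold under GSK-J4 and 1.26-fold under belinostat, the second with a call that did not last. Under belinostat, libraries 17 to 20 held 247.3, 302.8, 253.5 and 285.5 normalized counts. Under GSK-J4, libraries 21 to 24 held 161.7, 167.9, 130 and 137.3. No library of one group overlapped any library of another, and the groups stood in the order unstimulated, GSK-J4, vehicle, belinostat. GSK-J4 lowered TGFB2 by a log2 fold change of -0.53 (SE 0.12, adjusted p = 0.00126) against vehicle, and this call held in 13 of 13 alternatives. The rise under belinostat was 0.34 (SE 0.11, adjusted p = 0.0394) on the log2 scale. The call was lost in 8 of 13 alternatives, among them edgeR and the fits without vehicle library 13 (0.30), 14 (0.37), 15 (0.33) or 16 (0.35) or belinostat library 18 (0.28) or 20 (0.31), and adjusted p ran from 0.0218 to 0.19. Against unstimulated cells, TGFB2 was higher by 1.66 (SE 0.13) under belinostat and by 0.79 (SE 0.13) under GSK-J4, and each call held in 13 of 13 alternatives. Per 100 TGFB1 counts, TGFB2 gave 12.1 to 15.7 counts under belinostat and 6.52 to 8.87 under GSK-J4.

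A short noncoding gene, TGFB2-OT1, lies on the same strand and shares 1371 exonic bases with TGFB2, so the estimate divides reads between the pair. It reached at most 27.3 normalized counts in a library. The sum of both genes was 91.14 ± 7.901 in unstimulated cells, 220.7 ± 14.19 in vehicle, 284.8 ± 23.36 under belinostat and 164.6 ± 19.88 under GSK-J4 (SD, n = 4), and the order of the groups was the same. The antisense gene TGFB2-AS1 held at most 3 estimated counts.

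By the rule for likeness, the genes whose levels followed TGFB2 most closely over the 16 libraries were ERAP2 (Pearson's r 0.934), HIF1A (0.916) and ABLIM3 (0.914), out of 11732 genes. The 16 points are 4 groups and share the group differences, so these values are a description. ERAP2 trims peptides for antigen presentation, HIF1A is the oxygen-sensing transcription factor, and ABLIM3 is an actin-binding protein. ABLIM3 averaged 941.5 ± 62.4 normalized counts in unstimulated cells, 1318 ± 83.8 in vehicle, 1754 ± 110 under belinostat and 1164 ± 113 under GSK-J4 (SD, n = 4). In the same order of groups, ERAP2 averaged 1100 ± 27.6, 1367 ± 48.9, 1460 ± 105 and 1217 ± 30.3. HIF1A averaged 7157 ± 129, 8511 ± 97.9, 8802 ± 325 and 8259 ± 348, so its pulsed groups lay close together.

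TGFB1 and TGFB3 were not called in any of the 6 comparisons by DESeq2 or by edgeR, and neither were TGFBR1 and SMAD3. Of these 4 genes, TGFB3 in vehicle against unstimulated cells and TGFBR1 in GSK-J4 against unstimulated cells had an unadjusted p under 0.05. TGFB1 (ENSG00000105329.11, chr19:41301587-41353922, minus strand, 7 exons) averaged 2001 ± 93.3 normalized counts in unstimulated cells, 1917 ± 49.2 in vehicle, 1909 ± 125 under belinostat and 1897 ± 113 under GSK-J4 (SD, n = 4). Its 16 libraries lay between 1740 and 2111, and the groups overlapped throughout. The 95% intervals of its log2 fold change against vehicle were -0.12 to 0.11 for belinostat and -0.13 to 0.10 for GSK-J4. TGFB1 shares 215 exonic bases with HNRNPUL1 on the opposite strand, and the use of strand in the quantification was not given in the sources used here.

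TGFB3 (ENSG00000119699.8, chr14:75958097-75983011, minus strand, 7 exons) was near the lower end of what could be compared, at 18.43 to 47.84 normalized counts. Unstimulated libraries held 36.67, 37.04, 44.39 and 47.84, and vehicle libraries 29.51, 26.83, 25.15 and 30.43. Although these groups did not overlap, the log2 fold change of -0.57 (95% interval -1.07 to -0.07) missed the threshold across all genes (DESeq2 adjusted p = 0.417). Belinostat libraries ranged from 25.96 to 46.39 and GSK-J4 libraries from 18.43 to 38.61, both overlapping vehicle.

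INHBA, which encodes the subunit that forms activin A, was the remaining ligand gene. INHBA (ENSG00000122641.11, chr7:41667168-41705834, minus strand, 3 exons) stood at 726.3 ± 29.2 normalized counts in unstimulated cells and 751.7 ± 51.2 in vehicle (SD, n = 4). Under belinostat, libraries 17 to 20 held 697.9, 948.8, 883.6 and 941.7, and under GSK-J4, libraries 21 to 24 held 672.3, 656.3, 643.1 and 640.4. Belinostat library 17 lay within the vehicle range, whereas the other 3 lay above it, and all GSK-J4 libraries lay below vehicle. Neither difference from vehicle was called, at 0.21 for belinostat (adjusted p = 0.164) and -0.20 for GSK-J4 (adjusted p = 0.32). Without belinostat library 17, the INHBA difference from vehicle was 0.30 and passed the test, with adjusted p = 0.000186, the lowest of 13 alternatives (the highest was 0.455). Against unstimulated cells INHBA rose by 0.25 (SE 0.09, adjusted p = 0.0348) under belinostat, a call lost in 9 of 13 alternatives with adjusted p between 6.99e-06 and 0.17. Among these were the fits without unstimulated library 1 (0.24), 2 (0.27) or 4 (0.24) or belinostat library 18 (0.21), 19 (0.25) or 20 (0.21).

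**Figure D2:**
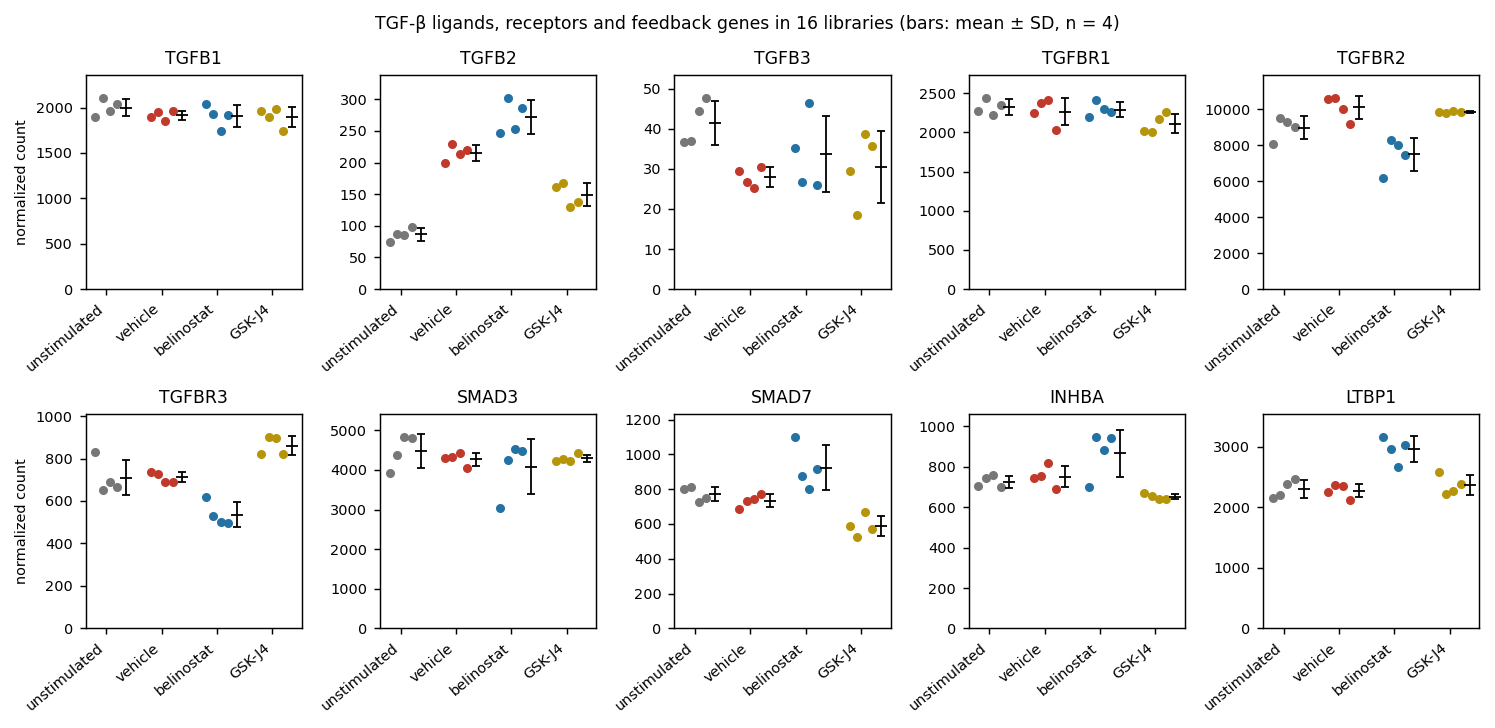
Normalized counts of the 10 genes in each of 16 libraries, 1 panel per gene with the axis starting at 0, 1 point per library in order of replicate number, and the mean ± SD of 4 libraries as a black bar. TGFB2 separates all 4 groups, from 74.3 to 98.6 in unstimulated cells up to 247.3 to 302.8 under belinostat, whereas TGFB1 lies at 1740 to 2111 in every group.

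The receptors gave a second pattern. TGFBR2 and TGFBR3 fell under belinostat, while TGFBR1 was not called. TGFBR2 (ENSG00000163513.19, chr3:30606601-30694142, plus strand, 7 exons), the ligand-binding kinase receptor, held 10540, 10650, 10020 and 9200 normalized counts in vehicle libraries 13 to 16. Belinostat libraries 17 to 20 held 6202, 8279, 8034 and 7463, every one below every vehicle library. The log2 fold change was -0.43 (SE 0.08, 95% interval -0.59 to -0.28, DESeq2 adjusted p = 5.06e-06), a fold of 0.742. Belinostat library 17 was the lowest, and over the alternatives, which include a fit without it, the value ran from -0.48 to -0.35 with 13 of 13 calls kept. GSK-J4 libraries lay between 9808 and 9898, inside the vehicle range, at -0.04 (95% interval -0.19 to 0.12). Unstimulated libraries lay between 8062 and 9513, and TGFBR2 fell by 0.26 (SE 0.08, adjusted p = 0.0155) on the log2 scale under belinostat against them. That call was lost in 3 of 13 alternatives, including those without unstimulated library 2 (-0.23) or 4 (-0.26).

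TGFBR3 was the receptor gene that the compounds moved furthest apart. TGFBR3 (ENSG00000069702.11, chr1:91680343-91906335, minus strand, 17 exons) held 829, 653.7, 689.8 and 666.8 normalized counts in unstimulated libraries and 734.8, 728.2, 690.2 and 690.6 in vehicle libraries, and these groups overlapped. It held 620.6, 528.7, 499.5 and 495.3 under belinostat and 820.8, 902.1, 896.1 and 821.7 under GSK-J4. All belinostat libraries lay below vehicle and all GSK-J4 libraries above it. The fall under belinostat was -0.41 (SE 0.09, 95% interval -0.58 to -0.23, adjusted p = 0.000201), which held in 13 of 13 alternatives. The GSK-J4 difference of 0.27 (SE 0.09, adjusted p = 0.0593) missed the threshold, and only the fit on the 2 groups alone called it (adjusted p = 0.00135). Against unstimulated cells, TGFBR3 was 0.28 higher under GSK-J4 (adjusted p = 0.0261), a call lost in 5 of 13 alternatives, with adjusted p up to 0.135. These were the fits without unstimulated library 2 (0.24), 3 (0.26) or 4 (0.25) or GSK-J4 library 22 (0.25) or 23 (0.26).

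TGFBR1 (ENSG00000106799.14, chr9:99104038-99154192, plus strand, 9 exons), the kinase receptor that phosphorylates SMADs, had group means of 2114 to 2323 normalized counts. Its libraries overlapped between all groups. The 95% interval of its log2 fold change against vehicle was -0.10 to 0.14 for belinostat and -0.22 to 0.02 for GSK-J4.

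SMAD7 moved in opposite directions under the compounds and SMAD3 was not called. SMAD7 (ENSG00000101665.10, chr18:48919853-48950965, minus strand, 4 exons) held 802, 809.9, 725.3 and 746.9 normalized counts in unstimulated libraries. It held 687.2, 731.1, 746.1 and 773.6 in vehicle libraries, overlapping the unstimulated ones. Belinostat libraries 17 to 20 held 1101, 876.7, 799.4 and 918.9, all above vehicle, and GSK-J4 libraries 21 to 24 held 589.9, 525.3, 668.5 and 571.2, all below it. The rise under belinostat was 0.33 (SE 0.09, adjusted p = 0.00952). It was lost without vehicle library 13 (0.30, adjusted p = 0.068) and was kept in the other 12 alternatives, with a lowest value of 0.24. The fall under GSK-J4 was -0.32 (SE 0.10, adjusted p = 0.0432), and only 4 of 13 alternatives kept the call, with adjusted p from 0.0047 to 0.299. It was lost under edgeR and without any 1 of the 4 vehicle libraries (-0.35 to -0.29) or GSK-J4 library 21 (-0.32), 22 (-0.27) or 24 (-0.30). Against unstimulated cells SMAD7 was 0.39 lower under GSK-J4 on the log2 scale (-0.39, SE 0.10, adjusted p = 0.00191), which held in 13 of 13 alternatives. The difference of 0.26 between belinostat and unstimulated cells (adjusted p = 0.0486) was called in only 2 of 13 alternatives, with adjusted p from 0.00845 to 0.208. The fits that lost it include those without any 1 of the 4 unstimulated libraries (0.23 to 0.29) and those without belinostat library 18 (0.29), 20 (0.27) or 17 (0.17), the last being the highest of its group.

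SMAD3 (ENSG00000166949.17, chr15:67063763-67195173, plus strand, 9 exons), the receptor-activated transcription factor, averaged 4483 ± 429 normalized counts in unstimulated cells, 4273 ± 166 in vehicle, 4080 ± 699 under belinostat and 4291 ± 94.3 under GSK-J4 (SD, n = 4). The belinostat libraries held 3047, 4260, 4526 and 4489. Library 17 was thus the lowest of all 16, while the other 3 lay within the unstimulated range. The 95% interval against vehicle was -0.26 to 0.13 for belinostat and -0.19 to 0.20 for GSK-J4.

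LTBP1 (ENSG00000049323.16, chr2:32946953-33399509, plus strand, 34 exons), which binds latent TGF-β and anchors it in the matrix, was higher under belinostat than in each of the other 3 groups. Unstimulated libraries held 2156 to 2475 normalized counts, vehicle libraries 2257, 2365, 2354 and 2125, and GSK-J4 libraries 2587, 2218, 2263 and 2391. Belinostat libraries held 3164, 2971, 2661 and 3034, all above every library of the other 3 groups. The log2 fold change against vehicle was 0.38 (SE 0.07, 95% interval 0.25 to 0.51, adjusted p = 2.41e-06), a fold of 1.3, and the call that held in 13 of 13 alternatives. Against unstimulated cells it was 0.36 (SE 0.07, adjusted p = 6.77e-06), which also held in all 13.

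**Figure D3:**
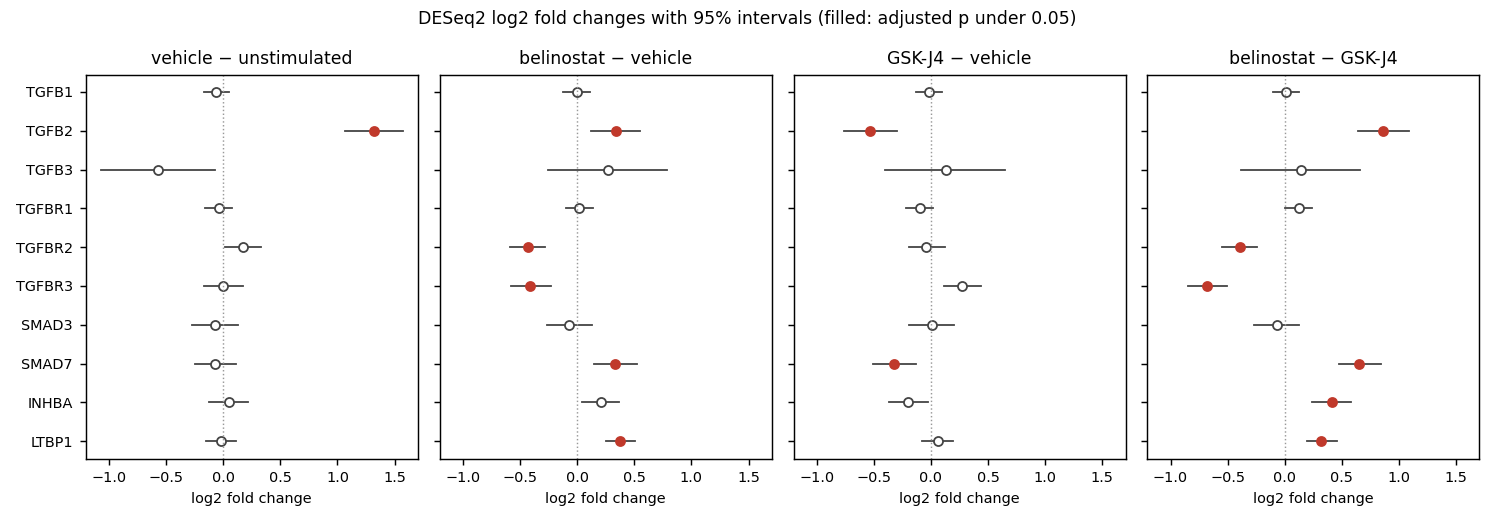
DESeq2 log2 fold changes of the 10 genes with 95% intervals in 4 comparisons, filled where adjusted p was under 0.05. TGFB2 is the 1 filled point for vehicle against unstimulated cells (1.32), while 5 genes are filled for belinostat against vehicle, 2 for GSK-J4 against vehicle and 6 for belinostat against GSK-J4.

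In counts, belinostat changed 5 of the 10 genes against vehicle, with TGFB2, SMAD7 and LTBP1 higher and TGFBR2 and TGFBR3 lower, where 6.26% of all 14209 genes tested were called. Without belinostat library 17 the count was 6, with INHBA added, and without vehicle library 13 it was 3. GSK-J4 changed 2 of 10, TGFB2 and SMAD7, both lower, where 1.92% of 13197 genes were called, and under edgeR only TGFB2 was called. Both comparisons use the same vehicle libraries. Against unstimulated cells, 6 of 10 genes were called under belinostat (10.3% of all genes tested) and 3 of 10 under GSK-J4 (5.55%). The belinostat count fell to 3 in the fit on the 2 groups alone and without unstimulated library 2 or 4. Of the 10 genes, 9 averaged at least 50 normalized counts, while the genes tested overall include lower ones. In every comparison, the share of all genes set beside a count of the 10 therefore describes the set and does not test it. The median log2 fold change of all tested genes lay within 0.01 of 0 in each comparison.

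The compounds were also set against each other directly, at doses that differ in the labels and that were not matched for effect. Belinostat and GSK-J4 differed in 6 of 10 genes, where 12.2% of 14717 genes tested were called. TGFB2 was 0.86 higher under belinostat (SE 0.12, adjusted p = 1.04e-11), SMAD7 0.65 (SE 0.09), INHBA 0.41 (SE 0.09) and LTBP1 0.32 (SE 0.07). TGFBR3 was lower under belinostat at -0.68 (SE 0.09, adjusted p = 8.08e-13) and TGFBR2 at -0.39 (SE 0.08). The libraries of the compounds did not overlap in any of these 6 genes, and each call held in 13 of 13 alternatives. The share of all genes tested whose libraries separate in this way was not counted. INHBA, which neither compound moved past the threshold against vehicle, was 1.33-fold higher under belinostat than under GSK-J4. No difference was called in the other 4 genes, with 95% intervals of -0.10 to 0.12 for TGFB1, -0.38 to 0.66 for TGFB3, -0.00 to 0.24 for TGFBR1 and -0.27 to 0.12 for SMAD3. The interval for TGFB3 is wide, and TGFB3 was the least abundant gene.

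A further 74 genes of the pathway were listed by role, with earlier results of these data known. All 18 SMADs and regulators and 21 of 24 target genes averaged at least 50 normalized counts, while the genes tested overall include lower ones. Shares set beside those of all genes therefore describe these lists and do not test them. In vehicle against unstimulated cells, 2 of 69 tested were called, both lower, a share of 2.9% beside the 1.74% of all genes. NEDD4L, a ubiquitin ligase that marks activated SMADs for degradation, fell by 0.46 (SE 0.12) on the log2 scale, and TNC, which encodes the matrix protein tenascin C, fell by 0.74 (SE 0.22). The first had DESeq2 adjusted p = 0.0192 and the second 0.0411, and edgeR called neither. Over the alternatives, adjusted p of NEDD4L ran from 0.00173 to 0.141 with 7 of 13 calls kept, and that of TNC from 1.31e-06 to 0.223 with 4 kept. Leaving out vehicle library 14, 15 or 16 or unstimulated library 3 or 4 ended both calls, at -0.45 to -0.41 for NEDD4L and -0.81 to -0.66 for TNC. In storage and activation, DESeq2 called 0 of 12 genes (2 at an unadjusted p under 0.05), and it called 0 of 7 other ligands and antagonists and 0 of 8 other receptors, with 0 at an unadjusted p under 0.05 in both and 0 by edgeR in all 3 lists.

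Belinostat changed 15 of 63 tested pathway genes against vehicle, 4 higher and 11 lower, a share of 23.8% beside the 6.26% of all genes. Among 11 tested genes of ligand storage and activation, 4 fell and none rose. They were LTBP4, a relative of LTBP1 (-0.38, SE 0.07), LRRC32, which holds latent TGF-β on the cell surface (-0.54, SE 0.18), the protease FURIN, which cleaves the TGF-β precursor (-0.26, SE 0.05), and the integrin subunit ITGB5 (-0.19, SE 0.04). LTBP4 thus fell from 8713 ± 419 to 6708 ± 584 normalized counts (SD, n = 4) where LTBP1 rose. The call for LRRC32 (adjusted p = 0.04) was lost in 7 of 13 alternatives, among them the fits without vehicle library 13 (-0.49), 14 (-0.53) or 15 (-0.55) or belinostat library 20 (-0.58). Over all alternatives its adjusted p ran from 0.00598 to 0.163 and its log2 fold change from -0.68 to -0.32. Its belinostat libraries were spread from 271.1 to 671 normalized counts, and without belinostat library 17 it was still called lower. Of 7 other receptors tested, ENG, or endoglin, a co-receptor related to TGFBR3, fell by 0.52 (SE 0.09, adjusted p = 2.54e-06), from 4932 ± 178 to 3451 ± 546 normalized counts. Over the alternatives the log2 fold change of ENG ran from -0.57 to -0.41, with 13 of 13 calls kept. Of 18 SMADs and regulators 1 was called, a share of 5.56% that is near that of all genes, and without belinostat library 17 SMURF1 was called higher as well. The 1 gene, SMURF2, a ubiquitin ligase that SMAD7 brings to the receptors, rose by 0.40 (SE 0.06, adjusted p = 2.2e-08), from 2570 ± 185 to 3396 ± 260. Of 5 tested ligands and antagonists, DESeq2 and edgeR called 0, with 0 at an unadjusted p under 0.05, but without belinostat library 17 DESeq2 called 1 higher, FSTL3, an antagonist of activins (0.14, SE 0.09 with all libraries).

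Of 22 tested TGF-β target genes, 9 were called under belinostat, 3 higher and 6 lower, a share of 40.9% beside the 6.26% of all genes. ACTA2, the smooth muscle actin of myofibroblasts, fell by 0.50 (SE 0.11), the immediate early gene JUNB by 0.44 (SE 0.09) and FN1, fibronectin, by 0.34 (SE 0.06). ELN, elastin, rose by 1.07 (SE 0.33), the BMP-responsive gene ID1 by 0.67 (SE 0.18) and COL4A1, a basement membrane collagen, by 0.28 (SE 0.07). The call for ELN was lost in 6 of 13 alternatives, with adjusted p up to 0.206, among them the fits without vehicle library 13 (1.08), 14 (0.92) or 16 (0.96) or belinostat library 18 (0.80) or 19 (0.91). Its libraries overlapped between the groups. edgeR called 6 of the 22. Without belinostat library 17, 8 target genes were called, 4 higher and 4 lower.

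GSK-J4 changed 8 of 61 tested pathway genes against vehicle, a share of 13.1% beside the 1.92% of all genes. Of these, 6 were target genes, all higher. They were TNC (0.85, SE 0.22), CNN1, the contractile protein calponin (0.71, SE 0.15), ACTA2 (0.55, SE 0.11), FN1 (0.29, SE 0.06) and 2 more, out of 21 tested. Other target genes had a lower mean under GSK-J4 without a call, such as ID1 (152.7 ± 26.3 against 219.7 ± 46.2 in vehicle) and CCN2 (2172 ± 157 against 2798 ± 617). ACTA2 averaged 20740 ± 833 normalized counts under GSK-J4 against 14140 ± 1340 in vehicle and 9990 ± 733 under belinostat (SD, n = 4). In unstimulated cells it averaged 17920 ± 3690, and those libraries (12840 to 21660) overlapped GSK-J4 (19660 to 21660). TNC averaged 3348 ± 545 in unstimulated cells, 2006 ± 293 in vehicle and 3619 ± 417 under GSK-J4, and its unstimulated and GSK-J4 libraries overlapped too. LDLRAD4, a membrane inhibitor that keeps SMADs from the receptor, fell by 0.80 (SE 0.19, adjusted p = 0.00538), and ITGB5 fell by 0.17 (SE 0.04). edgeR called 1 of the pathway genes, ACTA2, and adjusted p for CNN1 and FN1 reached at most 0.0562 over the alternatives. The call for TNC was lost in 5 of 13, with adjusted p up to 0.0981, among them the fits without vehicle library 13 (0.81) or 16 (0.78) or GSK-J4 library 22 (0.82) or 23 (0.79). That for LDLRAD4 was also lost without vehicle library 14 (-0.69) or GSK-J4 library 22 (-0.68), with adjusted p up to 0.111, and that for ITGB5 in 7 of 13 alternatives, at -0.17 to -0.14 and adjusted p up to 0.15. Among 7 other receptors DESeq2 called 0 (2 at an unadjusted p under 0.05), among 4 other ligands and antagonists 0 (0 at an unadjusted p under 0.05), and edgeR called 0 in both.

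Of 4 smooth muscle markers, 3 passed the test under GSK-J4 and 1 under belinostat, each against vehicle, and DES was too low to be tested. Of all genes tested, 1.92% were called under GSK-J4 and 6.26% under belinostat, and these include genes with lower counts. MYH11, ACTG2 and CNN1 rose under GSK-J4 at 1.11 (SE 0.22), 0.50 (SE 0.12) and 0.71 (SE 0.15) against vehicle, and ACTG2 fell by 0.63 (SE 0.12) under belinostat, where MYH11 stood at -0.22 (SE 0.22) and CNN1 at -0.14 (SE 0.15). Against unstimulated cells, MYH11 (1.45, SE 0.22) and CNN1 (0.59, SE 0.15) were called higher under GSK-J4, and ACTG2 (0.30, SE 0.12) was not called. The 4 markers summed to 8528 to 9631 normalized counts in vehicle, 6933 to 11550 in unstimulated cells, 4866 to 7132 under belinostat and 13980 to 14300 under GSK-J4, with DES under 10. Myofibroblasts express these genes too, and CNN1 is on both lists. ACTA2 and ACTG2 are close paralogs, and the estimate divides the reads they share. Some of the 9 fibroblast markers passed the test too. LUM rose by 0.36 (SE 0.10) in vehicle against unstimulated cells. Against vehicle, COL1A1 (-0.29, SE 0.08) and PDGFRA (-0.25, SE 0.06) fell under belinostat, and COL1A2 (0.22, SE 0.04) and COL3A1 (0.22, SE 0.06) rose under GSK-J4, the collagens being on the target list as well. The part of the markers in the differences of the 10 genes was not tested.

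**Figure D4:**
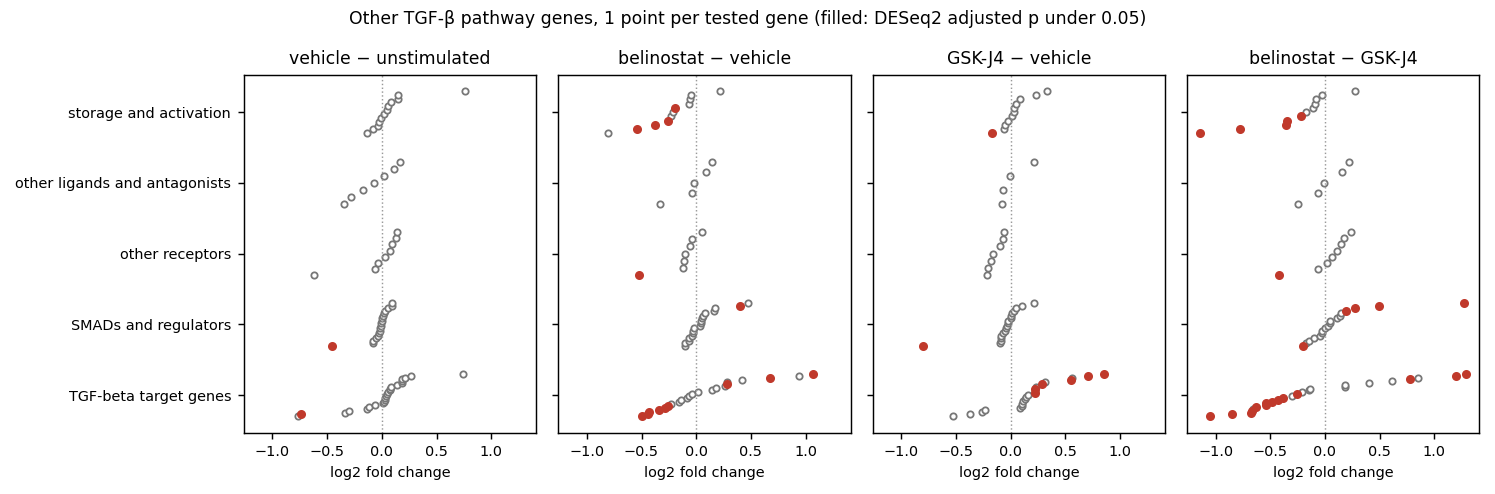
DESeq2 log2 fold changes of the other pathway genes in 4 comparisons, 1 point per tested gene, sorted within each of 5 lists and filled where adjusted p was under 0.05. In the row of TGF-β target genes, 9 points are filled for belinostat against vehicle (3 higher and 6 lower) and 6 for GSK-J4 against vehicle, all of them higher.

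Directly compared, belinostat and GSK-J4 differed in 25 of 66 tested pathway genes, 7 higher and 18 lower under belinostat, a share of 37.9% beside the 12.2% of all genes. Without belinostat library 17, FSTL3 was called higher here too. Of 24 target genes, 14 were called, 3 higher and 11 lower. ACTA2 was lower by -1.05 (SE 0.11, adjusted p = 1.11e-17), CNN1 by -0.85 (SE 0.15) and TNC by -0.68 (SE 0.22) under belinostat, whereas ELN was higher by 1.29 (SE 0.33), ID1 by 1.20 (SE 0.18) and CCN2, connective tissue growth factor, by 0.78 (SE 0.21). Of 18 SMADs and regulators, 5 were called, and LDLRAD4 (1.27, SE 0.19), SMURF2 (0.49, SE 0.06), PMEPA1 (0.27, SE 0.09) and SMURF1 (0.19, SE 0.06) were higher under belinostat. The other 13 did not pass the test, among them the inhibitors SKIL (0.15, SE 0.06), TGIF1 (-0.15, SE 0.06) and PPM1A (-0.10, SE 0.05). The calls for PMEPA1, SMURF1 and TNC were lost in 7, 6 and 5 of 13 alternatives, with adjusted p up to 0.126, 0.0925 and 0.0892. Without belinostat library 20 or GSK-J4 library 22 or 23 all 3 were lost, at 0.25 to 0.27 for PMEPA1, 0.18 to 0.19 for SMURF1 and -0.65 to -0.55 for TNC. FKBP1A, which binds the resting TGFBR1, was the 1 lower gene called among the SMADs and regulators (-0.20, SE 0.06), with a call lost in 4 alternatives at -0.19 to -0.16. In storage and activation, LRRC32 (-0.78, SE 0.18), LTBP4 (-0.36, SE 0.07), FURIN (-0.35, SE 0.05) and ITGB3 (-0.22, SE 0.07) were lower under belinostat. That of ITGB3 was lost in 8 of 13 alternatives, including edgeR and the fit without belinostat library 17 (-0.15).

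Against unstimulated cells, 15 of 63 tested pathway genes were called under belinostat, a share of 23.8% beside the 10.3% of all genes, and 13 of 70 under GSK-J4, a share of 18.6% beside 5.55%. These comparisons hold the pulses and the compound together. ACTA2 was lower under belinostat at -0.84 (SE 0.11) and POSTN, periostin, higher at 1.01 (SE 0.24), with LTBP4 at -0.40 (SE 0.07) and SMURF2 at 0.39 (SE 0.06). POSTN averaged 31.64 ± 7.45 normalized counts in unstimulated cells, 52.86 ± 11.2 in vehicle, 63.26 ± 17.6 under belinostat and 78.01 ± 2.6 under GSK-J4 (SD, n = 4). Vehicle thus already stood 0.74 (SE 0.24) above unstimulated cells, without a call (DESeq2 adjusted p = 0.0825). Under GSK-J4, POSTN was higher at 1.30 (SE 0.23), CNN1 at 0.59 (SE 0.15) and FN1 at 0.37 (SE 0.06), while CCN2 was lower at -0.67 (SE 0.21), LDLRAD4 at -0.81 (SE 0.19) and the decoy receptor BAMBI at -0.26 (SE 0.07). The call for CCN2 was lost in 7 of 13 alternatives, under edgeR and without unstimulated library 2 (-0.61), 3 (-0.66) or 4 (-0.65) or GSK-J4 library 21 (-0.64), 22 (-0.66) or 23 (-0.66), with adjusted p up to 0.129.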

How the data were processed

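Reads were quantified by the authors with kallisto 0.48.0, and the submitters' processing notes also name hg38, FastQC 0.11.9 and MultiQC 1.14. As deposited, each symbol has an unscaled estimated count in each library, and 28% of these had decimals. Transcript release and strand setting are not given in the sources used here. Columns of unstimulated cells read none where the titles read dmso, and they were matched by replicate number.

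The estimated counts were rounded, and DESeq2 1.42.0 (R 4.3.3) fitted all 16 libraries together on group alone, with its default size factors and filtering and unshrunken fold changes. Adjusted p (Benjamini-Hochberg) under 0.05 made a call, two-sided, in 6 comparisons, and intervals are at 95%. The fit was tested on simulated data. Alternatives were edgeR 4.0.16 (quasi-likelihood), TMM scaling, filterByExpr, no independent filtering, a fit on the 2 groups compared, and leaving out each library. List counts without belinostat library 17 were added after seeing the data. To look for repeat deposits of 1 library, pairs of replicates were set against counting noise, and none came within it, which says nothing more of the replicates.

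The genes, lists and tests were chosen with earlier results of these data known. Named were all 10 genes, the cell type markers, the 3 genes with the highest Pearson's r to the gene that varied most (variance-stabilised values) and, per pathway list and comparison, at most the 4 largest called rises and 4 largest called falls with a mean of at least 50 normalized counts, of which 1 gene is not reported here. Positions and transcript lengths are from GENCODE (GRCh38), matched by symbol.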

Additional observations from a re-analysis of the deposited data

Results flagged for a closer look

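In 6 genes the effect of belinostat differed from that of GSK-J4 in a direct test between the compounds, which is the difference of their effects since both share the vehicle libraries. The log2 differences, belinostat minus GSK-J4, were 0.86 for TGFB2, 0.65 for SMAD7, 0.41 for INHBA, 0.32 for LTBP1, -0.39 for TGFBR2 and -0.68 for TGFBR3. Of 40 sets of 4 libraries (10 genes in 4 groups), 0 held a library far enough from the others to pass Dixon's test at 95%.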

How the results depend on the processing

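Every alternative was run. Of 780 values of the 10 genes under alternatives, 704 kept their direction and their side of the threshold, 46 lost a call and 2 gained one, TGFBR3 in GSK-J4 against vehicle and INHBA in belinostat against vehicle. The other 28 changed sign, all in values that were not called. TGFBR3 in vehicle against unstimulated cells was -0.00 with edgeR and -0.00 with TMM size factors. Leaving out 1 library at a time, values that crossed 0 ran, in vehicle against unstimulated cells, from -0.07 to 0.01 (TGFBR1), -0.04 to 0.08 (TGFBR3) and -0.05 to 0.02 (LTBP1). In belinostat against vehicle they ran from -0.04 to 0.04 (TGFB1), -0.03 to 0.05 (TGFBR1) and -0.12 to 0.05 (SMAD3), and in GSK-J4 against vehicle from -0.04 to 0.02 (TGFB1), -0.01 to 0.31 (TGFB3) and -0.02 to 0.02 (SMAD3). In belinostat against GSK-J4 they ran from -0.03 to 0.05 (TGFB1), -0.05 to 0.28 (TGFB3) and -0.13 to 0.05 (SMAD3). TGFBR1 ran from -0.05 to 0.01 in belinostat, and LTBP1 from -0.01 to 0.07 in GSK-J4, against unstimulated cells.

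Pathway genes called in vehicle against unstimulated cells (2) were 0 with edgeR, 1 without independent filtering and 0 to 2 with 1 library left out. Of the 10 genes, calls for GSK-J4 against vehicle (2) were 1 with edgeR, 1 without independent filtering and 1 to 2 with 1 library left out, and those for belinostat against vehicle (5) were 3 to 6. Calls for belinostat against unstimulated cells (6) were 3 in the fit on 2 groups and 3 to 5 with 1 library left out. Pathway genes called for GSK-J4 against vehicle (8) were 1 with edgeR, 13 in the fit on 2 groups and 5 to 7 with 1 library left out. The cause was not tested. Calls over all genes for GSK-J4 against vehicle went from 253 to 78 with edgeR and 542 in the fit on 2 groups, and to 132 to 193 with 1 library left out, at 132 to 162 without vehicle library 14 or 15 or GSK-J4 library 21, 22 or 23. For vehicle against unstimulated cells they went from 282 to 159 with edgeR and to 180 to 295 with 1 library left out, lowest without unstimulated library 2. For belinostat against unstimulated cells they went from 1461 to 876 in the fit on 2 groups. No paired analysis was possible because the groups share no replicate number.

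Depth limits TGFB3, at 18.43 to 47.84 normalized counts, most. The line is a single one and the doses were single, so neither donors nor dose dependence can be read. Transcript levels say nothing of protein or of active ligand.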
